A study of Homo sapiens with 6 samples.

Results

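The genes described here are 31 genes of sterol synthesis and of the SREBP2 programme, taken by name from the 23686 genes counted in RNA-seq libraries of HEK293 cells. HEK293 is a human cell line derived from embryonic kidney. The cells sampled expressed the fluorescent marker GFP and grew in high-glucose medium with fetal bovine serum. In the co-culture group, 3 libraries came from GFP+ cells kept for 10 h beside HEK293 (+DAAO) cells, which made reactive oxygen species (ROS) and were given 25 µM D-alanine. DAAO is the usual short name of D-amino acid oxidase, which releases hydrogen peroxide from D-amino acids. The control group held 3 libraries of GFP+ cells, named Wt controls. The labels give 1 sorting and treatment text for all 6 libraries and do not say whether the controls received D-alanine or partner cells. The comparison asks what ROS from neighbouring cells does to gene expression in cells that lack the enzyme. All 31 genes were found, SC5D under its older symbol SC5DL, and all 31 passed the filter on low counts. They were placed in 3 groups by role: 8 early mevalonate steps, 11 late sterol steps, and 12 genes of uptake, transport, feedback and lipid metabolism, called uptake and feedback genes here.

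Cells build cholesterol from acetyl-CoA. The mevalonate pathway makes farnesyl diphosphate, which then either leaves for non-sterol products or is joined into squalene, closed into lanosterol and trimmed to cholesterol. The transcription factor SREBP2, encoded by SREBF2, is held in the endoplasmic reticulum by its escort SCAP and by the INSIG proteins while sterols are plentiful. When sterols fall, SCAP carries it to the Golgi, proteases release its active part, and that part switches on most genes of the pathway together with INSIG1, which closes a feedback loop.

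The libraries held between 19091085 and 36250314 reads on the reverse strand of genes, the strand with nearly all gene reads, and levels are given as counts per 1000000 reads (CPM) after scaling by trimmed means. Of 10 HEK293 markers, 10 stood above 1 CPM in every library, and their summed level was 2034 to 2112 CPM in the controls and 2448 to 2657 CPM in co-culture. VIM held the largest part of this sum, at 925 to 998 CPM in the controls and 1257 to 1318 CPM in co-culture. The markers did not all move 1 way, and GATA3 was lower in co-culture (27.0 to 27.5 CPM beside 30.8 to 34.6 CPM). Of 12 markers of blood, endothelium, fibroblasts and hepatocytes, 10 stayed at or under 1 CPM in at least 1 library and CD3E and TTR were at 0 in all 6. The other 2, COL1A1 and COL3A1, made up most of a sum of 34.9 to 50.1 CPM in the controls and 41.9 to 47.8 CPM in co-culture. The part of these marker levels in the results below was not tested. The human oxidase gene DAO had 0 reads throughout, and these markers do not separate GFP+ cells from partner cells of the same line. Across deep genes, the forward strand took a median of 0.124% and 0.211% of reads in co-culture libraries 2 and 3 and between 1.57% and 1.76% in the other 4. When this strand class is added as a batch term, co-culture library 1 and the controls carry the comparison, and its values are given where they bear on a call. Nothing in the labels says that libraries of a group came from separate cultures, so p-values measure the spread between these samples, which may be technical.

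In co-culture 3 of 8 early genes rose, IDI1, HMGCS1 and FDPS, with 3 of 11 late genes, MSMO1, SQLE and FDFT1, and 1 of 12 uptake and feedback genes, STARD4. These genes rose between 1.23-fold and 1.51-fold. With edgeR's quasi-likelihood test and an adjusted p under 0.05 over the 14582 tested genes, 7 of 31 members (22.6%) were higher and 0 were lower. Over all tested genes 4.83% were called, 2.66% higher and 2.17% lower. At an unadjusted p under 0.05, 17 members (54.8%) passed, all of them higher, against 23.2% of the tested genes, 11.7% higher and 11.5% lower. DESeq2 and limma-voom called 9 and 8 members higher and 0 lower, against 3.96% and 2.50% of all genes called higher. The 3 co-culture libraries lay above all 3 controls for 16 of 31 members (51.6%), against 14.3% of the tested genes, and for 0 members did they lie below, against 15.0%. The log2 fold change was above 0 for 23 of 31 members, against 49.6% of the tested genes. The median log2 fold change was 0.20 over the members and 0.00 over all tested genes. In RNA from many cells, a change in every cell and a change in the share of cells that express a gene cannot be told apart.

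**Figure D1:**
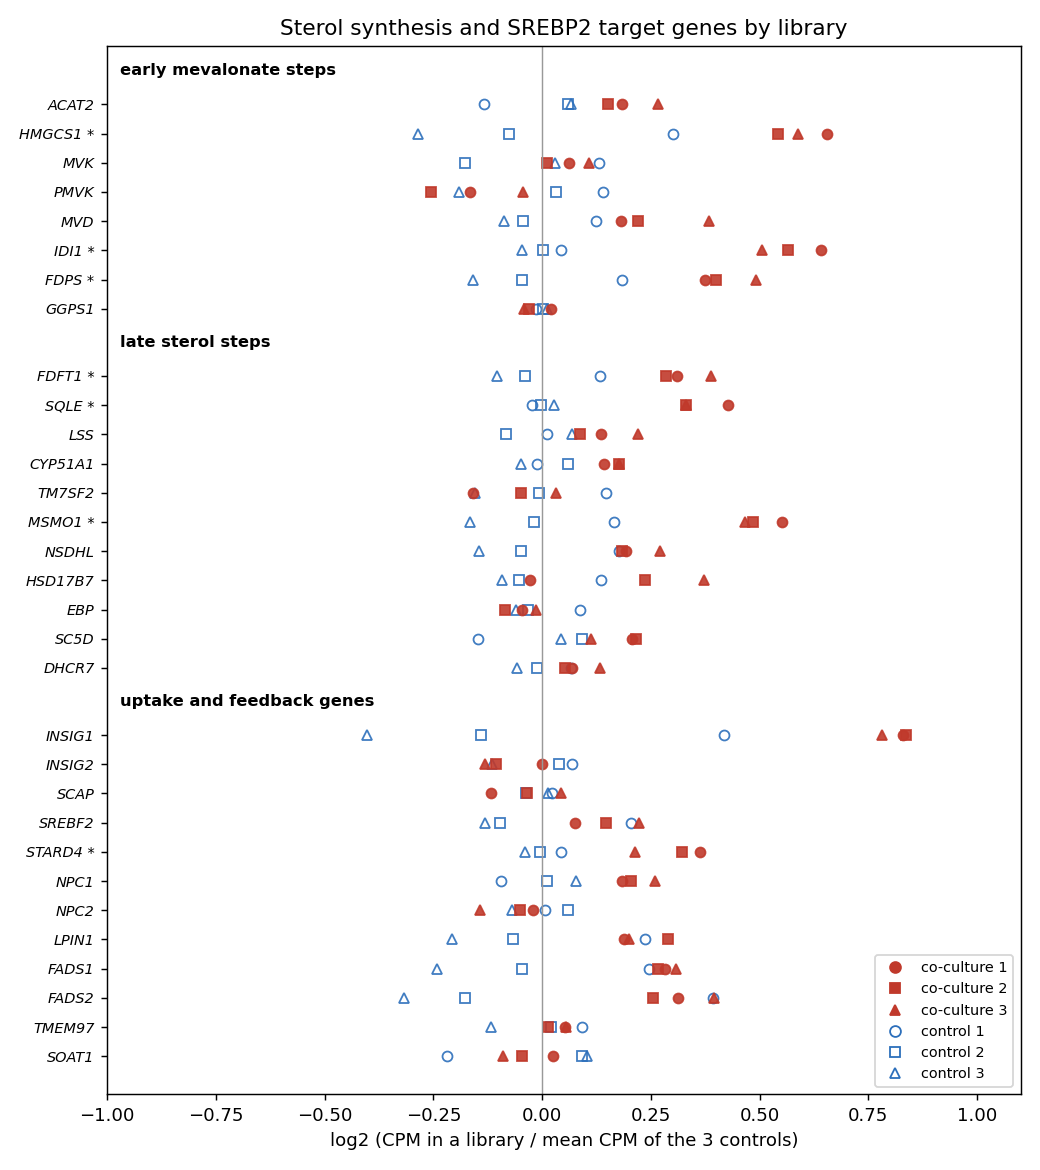
Each point is 1 library: the horizontal axis is the log2 ratio of its CPM to the mean CPM of the 3 controls, rows are the 31 genes by role, filled red symbols are co-culture and open blue symbols are controls, and an asterisk marks an edgeR adjusted p under 0.05. The co-culture symbols lie to the right of all controls for 16 genes, and control 1 is the highest control for 22 genes.

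Single libraries weighed heavily on the number of calls. It was 1 without co-culture library 1, without co-culture library 2 or without control 2, 4 without co-culture library 3, 7 without control 3 and 16 without control 1. The same fits called 0.581%, 0.401%, 0.325%, 1.57%, 2.74% and 10.6% of all tested genes higher. Once the strand class entered as a batch term, 1 member passed, IDI1, against 0.171% of all genes. The count was 7 with DESeq2's size factors, without the filter and with unstranded counts, 8 without robust estimation, 6 with total counts and 5 with a replicate block. These fits called 2.70%, 2.47%, 2.52%, 2.56%, 2.13% and 0.754% of all genes higher. Co-culture library 1, which shares its strand class with the controls, lay above all 3 of them for 18 of 31 members (58.1%), against 28.2% of the tested genes.

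Of the 8 early mevalonate genes, 3 rose, HMGCS1, IDI1 and FDPS, and 5 did not pass the test. The median log2 fold change of the 8 was 0.24, and the range ran from -0.15 to 0.60. IDI1 encodes isopentenyl diphosphate isomerase, which interconverts the pair of five-carbon building blocks of the pathway. It stood at 148, 139.9 and 134 CPM in co-culture libraries 1, 2 and 3 and at 97.5, 94.7 and 91.6 CPM in controls 1, 2 and 3. The groups were far apart, and each was tight, with means of 141 ± 6.70 and 94.6 ± 2.93 CPM (SD, n = 3 each). Its log2 fold change was 0.57 (SE 0.06 and adjusted p 0.00105 in edgeR), and it kept its call in all 15 other settings, with a highest adjusted p of 0.0356 in the fit with the batch term. RefSeq lists 3 IDI1 pseudogenes by symbol, and the files set reads with several matches apart from gene counts.

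HMGCS1 encodes the cytosolic synthase that makes hydroxymethylglutaryl-CoA at the entry to the pathway. Its level was 454, 420.0 and 433 CPM in co-culture, beside 355, 273 and 237 CPM in the controls. The groups did not overlap, but control 1 lay well above the other controls. The log2 fold change was 0.60 (SE 0.13 and adjusted p 0.0345 in edgeR). The call was lost without any 1 of the co-culture libraries or without control 2 (log2 fold changes from 0.56 to 0.62, edgeR adjusted p from 0.0725 to 0.147), with total counts (0.56, edgeR adjusted p 0.0600) and with the batch term (0.66, edgeR adjusted p 0.236). Without control 1, where 10.6% of all tested genes were called higher, the log2 fold change was 0.77 (edgeR adjusted p 4.04e-07).

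FDPS encodes farnesyl diphosphate synthase, the enzyme at the branch point to sterols and to prenyl groups. It had 194, 198 and 211 CPM in co-culture, beside 170.3, 145 and 134 CPM in the controls, so every co-culture library was above every control. The log2 fold change was 0.42 (SE 0.08 and adjusted p 0.0214 in edgeR). The call was lost without any 1 of the co-culture libraries or without control 2 (from 0.39 to 0.45, edgeR adjusted p from 0.0771 to 0.122) and with the batch term (0.38, edgeR adjusted p 0.287). RefSeq lists 10 FDPS pseudogenes by symbol, so its uniquely mapped reads are an uncertain share of the total.

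The 5 early genes that did not pass were not alike. ACAT2, the cytosolic thiolase that makes acetoacetyl-CoA, and MVD, the decarboxylase that makes isopentenyl diphosphate, had no overlap between groups. ACAT2 ran from 172 to 186 CPM in co-culture, beside 141 to 162 CPM in the controls, a log2 fold change of 0.20 (SE 0.07 and adjusted p 0.113 in edgeR). MVD ran from 31.8 to 36.6 and from 26.4 to 30.6 CPM, a log2 fold change of 0.27 (SE 0.09 and adjusted p 0.0928 in edgeR). Over ACAT2, 21.3% of reads were on the forward strand, which the reverse-strand counts used for all genes leave out. The groups overlapped for the kinases MVK and PMVK, which phosphorylate mevalonate in turn, with log2 fold changes of 0.06 and -0.15 (SE 0.10 for both). They also overlapped for GGPS1, which makes geranylgeranyl diphosphate for protein prenylation and lies off the route to sterols. GGPS1 stood at 60.7 to 63.3 CPM in co-culture, beside 61.9 to 63.0 CPM in the controls, a log2 fold change of -0.02 (SE 0.06 and adjusted p 0.889 in edgeR).

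**Figure D2:**
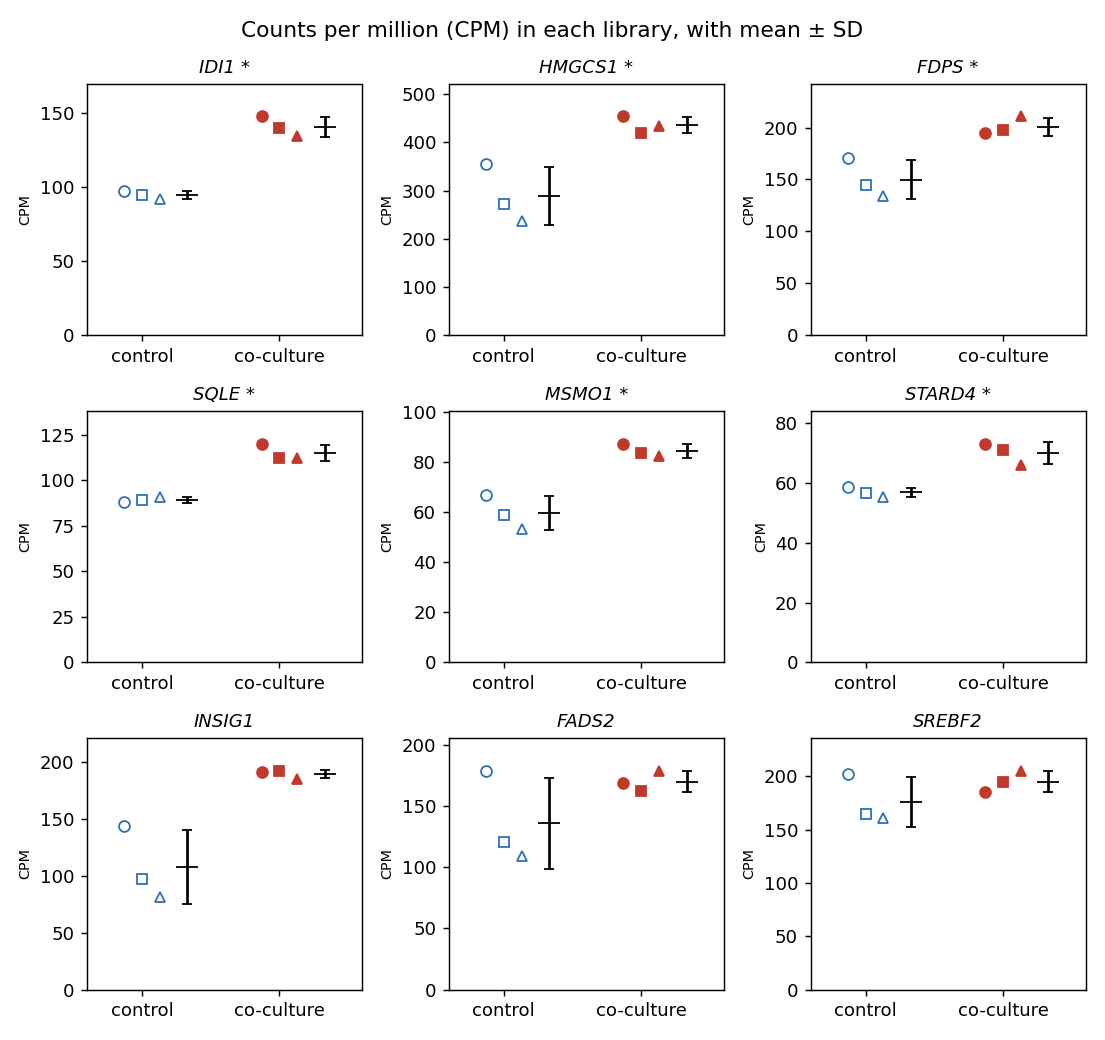
Level in CPM on a linear axis from 0 for 9 genes, with 1 symbol per library (circle, square and triangle for libraries 1, 2 and 3) and the mean ± SD of the 3 libraries of each group beside it. IDI1 and SQLE show tight controls, at 91.6 to 97.5 and 87.8 to 91.0 CPM, and INSIG1 and FADS2 show a control 1 far above controls 2 and 3.

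Of the 11 late sterol genes, 3 rose, FDFT1, SQLE and MSMO1, and 8 did not pass the test. Their median log2 fold change was 0.18, and the range ran from -0.05 to 0.50. SQLE encodes squalene epoxidase, which adds the oxygen that becomes the hydroxyl group of sterols. It stood at 120.1, 112 and 112 CPM in co-culture, beside 87.8, 89.1 and 91.0 CPM in the controls. Its controls were among the tightest of the members, and control 1 was the lowest of them. The log2 fold change was 0.36 (SE 0.06 and adjusted p 0.00719 in edgeR). The call was lost when co-culture library 1 or 2 or control 2 was left out (from 0.33 to 0.38, edgeR adjusted p from 0.0541 to 0.0643) and with the batch term (0.43, edgeR adjusted p 0.110).

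MSMO1 encodes the methylsterol monooxygenase that starts the removal of methyl groups from the sterol ring. Its levels were 87.2, 83.3 and 82.2 CPM in co-culture, beside 66.8, 58.8 and 53.1 CPM in the controls, with the largest log2 fold change of the late genes, 0.50 (SE 0.08 and adjusted p 0.00923 in edgeR). The call was lost without the same 3 libraries as that of SQLE (from 0.48 to 0.51, edgeR adjusted p from 0.0691 to 0.0721) and with the batch term (0.55, edgeR adjusted p 0.158). FDFT1 encodes squalene synthase, the committed step towards sterols. It stood at 164, 161 and 173 CPM in co-culture, beside 145, 129 and 123 CPM in the controls. Its log2 fold change was 0.33 (SE 0.07 and adjusted p 0.0273 in edgeR). The call was lost without any 1 of the co-culture libraries or without control 2 (from 0.30 to 0.35, edgeR adjusted p from 0.0885 to 0.147) and with the batch term (0.31, edgeR adjusted p 0.299).

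Among the 8 late genes that did not pass, 4 had no overlap between the groups. These were LSS, which closes squalene epoxide into lanosterol, the demethylase CYP51A1, the sterol dehydrogenase NSDHL, which works with MSMO1, and the sterol desaturase SC5D. Their log2 fold changes were 0.15, 0.17, 0.22 and 0.18 (SE 0.06, 0.06, 0.08 and 0.07), with edgeR adjusted p-values from 0.109 to 0.187. Without control 1 SC5D was 0.11. NSDHL was separated by little, with 51.5 CPM in the lowest co-culture library and 51.1 CPM in control 1. LSS was also close, with 107.5 CPM in co-culture library 2 and 106.1 CPM in control 3. The same held for SC5D, with 152.8 CPM in co-culture library 3 and 150.6 CPM in control 2. HSD17B7, the reductase that acts after NSDHL, ranged from 14.0 to 18.4 CPM in co-culture, beside 13.3 to 15.6 CPM in the controls. Its log2 fold change was 0.21 (SE 0.12), and with the batch term it was -0.03. RefSeq lists 2 HSD17B7 pseudogenes and 3 CYP51A1 pseudogenes by symbol. The last 3 genes, TM7SF2, a sterol reductase, EBP, a sterol isomerase, and DHCR7, a reductase that yields cholesterol, had log2 fold changes of -0.05, -0.05 and 0.09. Each of these 3 showed overlap, with SEs of 0.09, 0.06 and 0.06.

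**Figure D3:**
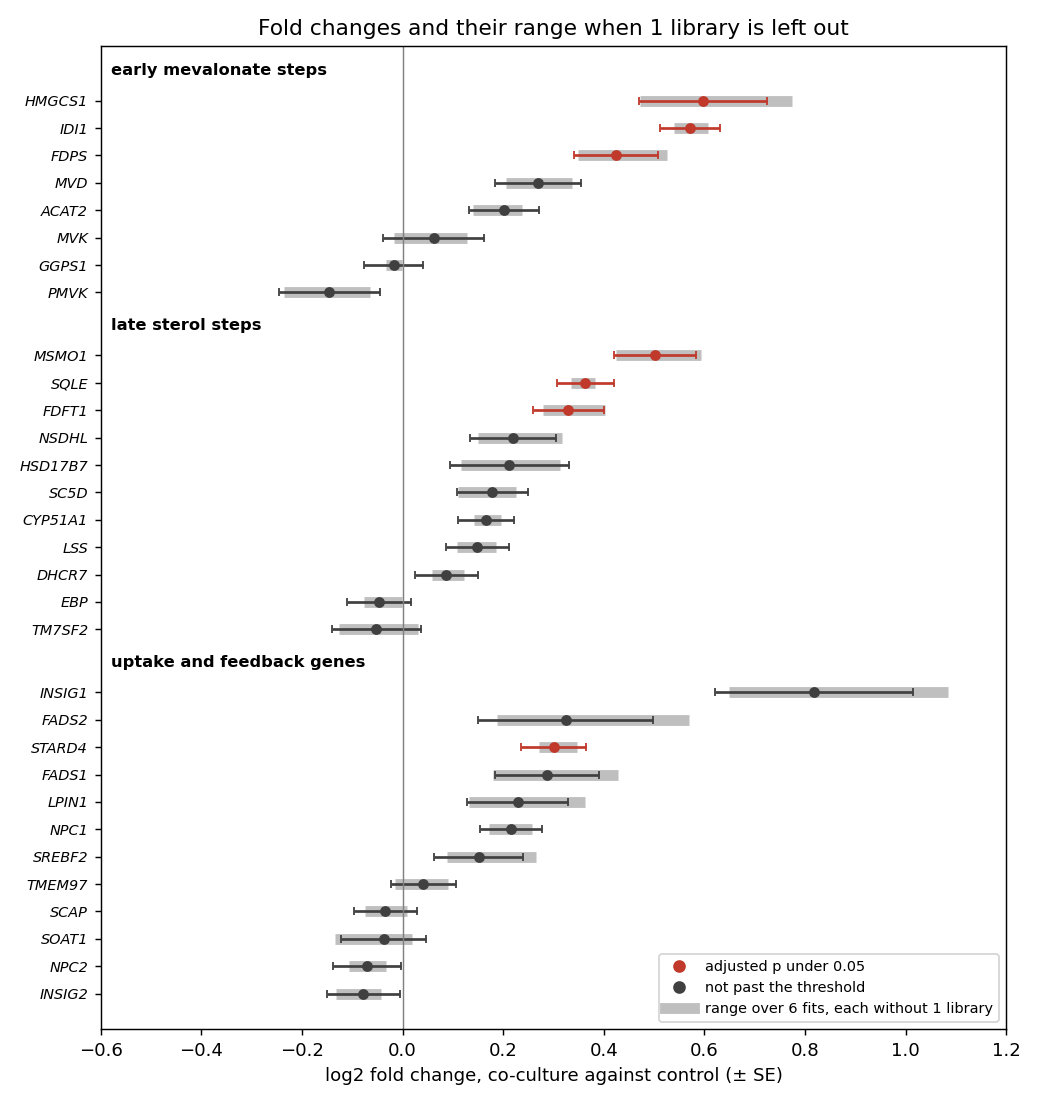
Points are log2 fold changes of co-culture against control with bars of ± 1 SE, by role and in falling order, red where the edgeR adjusted p was under 0.05; grey bands span the 6 fits that each left out 1 library. INSIG1 has the highest point at 0.82 with a band from 0.65 to 1.08, while IDI1 has a narrow band from 0.54 to 0.61.

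Of the 12 uptake and feedback genes, 1 rose and 11 did not pass. The median log2 fold change was 0.18, from -0.08 to 0.82. The gene that rose was STARD4, a carrier that moves cholesterol between membranes, at 73.0, 70.9 and 65.8 CPM in co-culture, beside 58.4, 56.5 and 55.2 CPM in the controls. Its log2 fold change was 0.30 (SE 0.07 and adjusted p 0.0293 in edgeR). The call was lost without co-culture library 1 or 2 or control 2 or 3 (from 0.27 to 0.30, edgeR adjusted p from 0.0506 to 0.160) and with the batch term (0.36, edgeR adjusted p 0.210).

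INSIG1, the feedback protein that retains the SCAP and SREBP2 complex, had the largest difference of the 31 genes and did not pass. It stood at 191, 192 and 185 CPM in co-culture, beside 144, 97.7 and 81.6 CPM in the controls. The co-culture libraries lay close together above all controls, and the controls spread widely. The log2 fold change was 0.82 (SE 0.20 and adjusted p 0.0712 in edgeR). Without control 1, where 10.6% of all tested genes were called higher, it was 1.08 (edgeR adjusted p 6.21e-08). DESeq2 and limma-voom gave 0.82 and 0.86 and called it (adjusted p 0.0244 and 0.0196). Of the 6 fits that each left out 1 library, only that without control 1 called INSIG1, and the highest edgeR adjusted p was 0.203. INSIG1 was called in 5 of the 15 other settings. With the batch term its log2 fold change was 0.83, and it did not pass. Its paralog INSIG2 showed overlapping groups, at 46.3 to 50.7 and 46.8 to 53.2 CPM, and a log2 fold change of -0.08 (SE 0.07 and adjusted p 0.559 in edgeR). The difference between these paralogs was not tested.

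The sensor and factor genes themselves showed small differences. SREBF2 had 185, 195 and 205 CPM in co-culture, beside 203, 164 and 161 CPM in the controls, so control 1 lay among the co-culture libraries. Its log2 fold change was 0.15 (SE 0.09 and adjusted p 0.332 in edgeR). Without control 1, where 10.6% of all tested genes were called higher, it was 0.27 (edgeR adjusted p 0.00240). It was 0.09 without control 3 and 0.08 with the batch term. SCAP stood at 74.4 to 83.2 CPM in co-culture, beside 78.7 to 81.9 CPM in the controls, with a log2 fold change of -0.03 (SE 0.06 and adjusted p 0.782 in edgeR).

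Of the genes of lysosomal export and storage, NPC1, the membrane protein that releases cholesterol from lysosomes, had 118, 119 and 124 CPM in co-culture, beside 97.1, 104 and 109 CPM in the controls. The groups did not overlap, and the log2 fold change of 0.22 (SE 0.06) missed the threshold with an edgeR adjusted p of 0.0689. Its soluble partner NPC2, the NPC1-binding protein TMEM97 and the cholesterol acyltransferase SOAT1 overlapped between groups, at log2 fold changes of -0.07, 0.04 and -0.04 (SE 0.07, 0.06 and 0.08). SOAT1 was the member in which control 1 was lowest against the other controls, at 89.9 CPM beside 111 and 112 CPM. TMEM97 had 8.99% of its reads on the forward strand, and RefSeq lists 2 pseudogenes for it.

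The lipid enzymes FADS1 and FADS2, desaturases of polyunsaturated fatty acids, and LPIN1, a phosphatidate phosphatase, were marked by control 1. FADS2 had 169, 162 and 179 CPM in co-culture, beside 178, 120.1 and 109 CPM in the controls. FADS1 had 211, 209 and 215 CPM in co-culture, beside 206, 168 and 147 CPM in the controls, and LPIN1 had 63.5, 68.2 and 64.1 against 65.7, 53.3 and 48.3 CPM. Control 1 therefore lay within or next to the co-culture values for all 3 genes. Their log2 fold changes were 0.29 (FADS1, SE 0.10), 0.32 (FADS2, SE 0.17) and 0.23 (LPIN1, SE 0.10), with edgeR adjusted p-values from 0.135 to 0.315. Without control 1 they were 0.43, 0.57 and 0.36, and all 3 passed (highest edgeR adjusted p 0.000828), beside 10.6% of all genes called higher. Without control 3 they were 0.18, 0.19 and 0.13, and none of the 3 passed (lowest edgeR adjusted p 0.220).

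The summed level of each role was higher in every co-culture library than in every control. The 8 early genes together took 1088 ± 25.5 CPM in co-culture, beside 817 ± 75.5 CPM in the controls (SD, n = 3 each), a ratio of 1.33. The 11 late genes took 1018 ± 12.2 and 880.2 ± 23.5 CPM, a ratio of 1.16. For the 12 uptake and feedback genes the values were 1428 ± 12.3 and 1221 ± 127 CPM, a ratio of 1.17. The share of members called was 3 of 8 (37.5%), 3 of 11 (27.3%) and 1 of 12 (8.33%), against 2.66% of all tested genes called higher. The share with no overlap was 5 of 8 (62.5%), 7 of 11 (63.6%) and 4 of 12 (33.3%), against 14.3% of all tested genes with co-culture higher. Differences between roles were not tested.

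**Figure D4:**
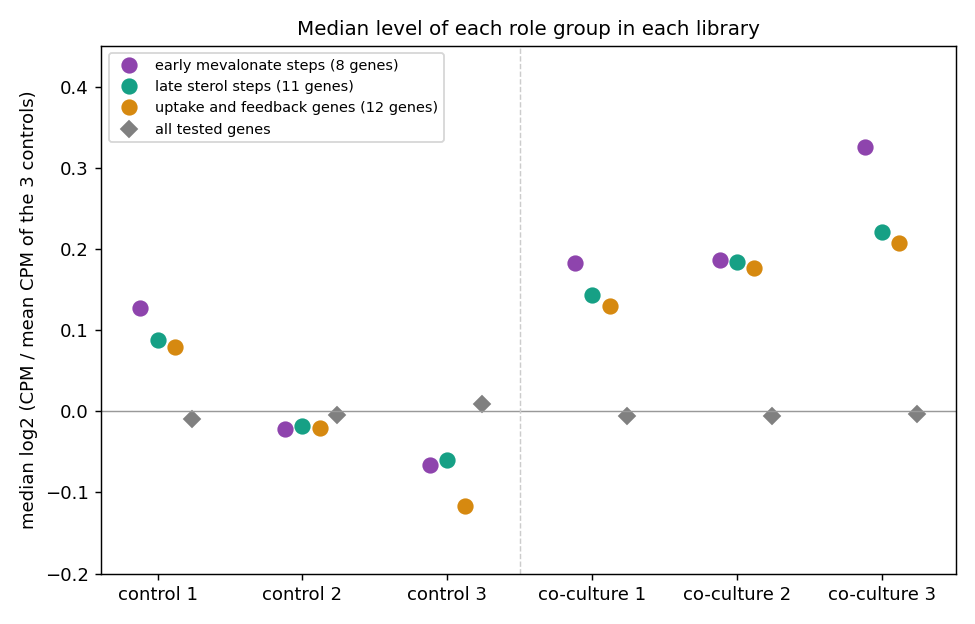
For each library, the vertical axis gives the median over the genes of a role of the log2 ratio of CPM to the mean CPM of the 3 controls, with all tested genes in grey. The coloured points run from 0.13 to 0.33 in the co-culture libraries, from 0.08 to 0.13 in control 1 and from -0.12 to -0.02 in controls 2 and 3, while the grey points stay between -0.01 and 0.01.

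Control 1 was the highest of the controls for 22 of 31 members (71.0%), against 39.5% of all tested genes. Its level was 1.61 times the mean of controls 2 and 3 for INSIG1, 1.56 times for FADS2, 1.39 times for HMGCS1, 1.31 times for FADS1, 1.29 times for LPIN1 and 1.25 times for SREBF2. It was lowest against that mean for SOAT1 (0.804 times), SC5D (0.862 times), ACAT2 (0.872 times) and NPC1 (0.909 times). With control 1 set aside, the co-culture libraries lay above controls 2 and 3 for 21 of 31 members (67.7%), against 24.9% of all tested genes. SOAT1, SC5D, ACAT2 and NPC1 were thus set apart from INSIG1 and the desaturases in where control 1 lay.

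The spread between libraries was wider in the controls than in co-culture for 25 of 31 members (80.6%), against 68.8% of all tested genes, as SDs of log2 CPM over 3 libraries each. The SD was 0.42 in the controls and 0.03 in co-culture for INSIG1, 0.38 and 0.07 for FADS2, 0.30 and 0.06 for HMGCS1, and 0.24 and 0.02 for FADS1. The order was the other way for IDI1 (0.04 and 0.07), SQLE (0.03 and 0.06) and STARD4 (0.04 and 0.08), all of which rose, and for SCAP (0.03 and 0.08), GGPS1 (0.01 and 0.03) and HSD17B7 (0.12 and 0.20). The median SD over the members was 0.12 in the controls and 0.06 in co-culture, and over all tested genes 0.13 and 0.08. The difference in spread was not tested.

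The rest of the sterol network was placed in 5 lists, chosen with earlier results of these data known. Among 105 distinct tested genes 6 were called (5.71%), near the 4.83% called over all tested genes, 2.66% higher and 2.17% lower. The lists were not alike. The share with an unadjusted p under 0.05 in edgeR ran from 18.5% to 42.9% between lists, against 23.2% of all tested genes. Of 22 genes that mature SREBP proteins or degrade sterol-sensing proteins, 1 rose and 0 fell, and the median log2 fold change was -0.04. The gene was TRIB1, a pseudokinase that steers proteins to degradation, at 23.3 to 25.8 CPM in co-culture, beside 13.9 to 15.6 CPM in the controls (log2 difference 0.74 with SE 0.09 and adjusted p 0.00171 in edgeR). Of 23 genes of the non-sterol isoprenoid branch, which makes dolichol, ubiquinone and prenylated proteins, 0 passed, with a median of -0.08. In that branch 6 of 23 genes (26.1%) had an unadjusted p under 0.05 in edgeR, 1 higher and 5 lower, against 23.2% of all tested genes. Of 27 tested genes of other sterol-modifying enzymes and sterol carriers, SCARB1 alone passed and the median was 0.04. SCARB1, a lipoprotein receptor that takes up cholesteryl esters, stood at 74.5 to 78.1 CPM in co-culture, beside 52.0 to 59.0 CPM in the controls (log2 difference 0.48 with SE 0.07 and adjusted p 0.00486 in edgeR).

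Among 22 tested genes of SREBP1 and fatty acid synthesis, 1 rose, ACLY, the enzyme that makes cytosolic acetyl-CoA from citrate. It stood at 698 to 774 CPM in co-culture, beside 574 to 614 CPM in the controls, and the median of that list was 0.10. ACLY had a log2 fold change of 0.30 (SE 0.07 and adjusted p 0.0314 in edgeR). In that list 9 of 22 genes (40.9%) had an unadjusted p under 0.05 in edgeR, 7 higher and 2 lower, against 23.2% of all tested genes. The co-culture libraries lay above all controls for 9 genes of the list and below for 3, against 14.3% and 15.0% of all tested genes. SREBF1 was lower in all 3 co-culture libraries, at 29.5 to 31.2 CPM against 34.1 to 45.6 CPM, and did not pass (log2 difference -0.33 with SE 0.10 and adjusted p 0.0859 in edgeR). Its difference was -0.20 without control 1 and -0.42 without control 3, where it passed (edgeR adjusted p 0.0297). Of 14 tested LXR receptors and targets, 3 fell and 0 rose, against 2.17% of all tested genes called lower, and the median was -0.10. In this list 6 of 14 genes (42.9%) had an unadjusted p under 0.05 in edgeR, all lower, against 11.5% of all tested genes lower. These included the receptor genes NR1H2 and RXRA. SREBF1 was also among them, and it was counted in the lists of SREBP maturation and of fatty acid synthesis as well. LXR is the receptor through which oxysterols switch on sterol efflux. MYLIP, a ubiquitin ligase for lipoprotein receptors, fell from 61.5 ± 0.730 to 41.1 ± 2.38 CPM (log2 difference -0.58 with SE 0.07 and adjusted p 0.00143 in edgeR). LPCAT3, a phospholipid acyltransferase, fell with a log2 fold change of -0.32 (SE 0.07 and adjusted p 0.0331 in edgeR), and 15.0% of its reads lay on the forward strand. The sterol exporter ABCG1 had 3.00, 3.37 and 2.88 CPM in co-culture, beside 14.5, 7.51 and 6.83 CPM in the controls, and its log2 fold change was -1.64 (SE 0.28 and adjusted p 0.0154 in edgeR), or -1.22 without control 1. The calls of SCARB1, ACLY, MYLIP, LPCAT3 and ABCG1 were lost with the batch term (edgeR adjusted p from 0.116 to 0.374), with log2 fold changes of 0.45, 0.26, -0.50, -0.26 and -1.67. Of the 6 fits that each left out 1 library, SCARB1 kept its call in 5, ABCG1 in 3, ACLY in 2 and LPCAT3 in 1. Across the 5 lists 3 distinct genes rose and 3 fell, or 3 and 6 with total counts in place of trimmed means. Over all tested genes the same scaling gave 310 higher and 572 lower, against 388 and 316.

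Promoter sequences are shown because several members rose and SREBP2 acts through sites in promoters. SREBP proteins bind sterol regulatory elements and act beside NF-Y, which binds CCAAT boxes, and SP1, which binds GGGCGG. In RefSeq windows of GRCh38.p14 that run from 250 bases before to 50 bases after a start, 28 of 31 members had an entry, all but ACAT2, FDFT1 and SQLE. Both strands were searched, and a gene counted when any of its windows held the motif. CCAAT was present for 21 of 28 members (75.0%), against 43.3% of 10467 tested genes matched by symbol and 34.6% of all 35116 windows. It was found for 6 of 7 early, 8 of 9 late and 7 of 12 uptake and feedback genes, and for all 5 matched genes that rose. GGGCGG was present for 27 of 28 members (96.4%), against 77.4% of tested genes and 45.0% of windows, and the E-box CACGTG for 4 of 28 (14.3%), against 12.4% and 7.26%. The element core TCACNCCAC was present for 1 of 28 members, SREBF2, against 1.49% of tested genes and 1.13% of windows. Its shorter form CACNCCAC, which lies within the longer one and was chosen after the data were seen, was present for IDI1, SC5D, INSIG1 and SREBF2, against 7.97% and 5.87%. Of the 5 matched genes that rose, TCACNCCAC was present for 0, CACNCCAC for 1, GGGCGG for 5 and the E-box for 0. A match is a string of letters and not a site of binding, and these windows are short.

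The 250 bases before the start are printed for the 5 genes that rose and have an entry, and for INSIG1 and SREBF2, which were chosen after their values were seen. Capitals mark CCAAT, or its reverse complement ATTGG, and in SREBF2 also TCACNCCAC. The windows, in gene orientation, are chr10:1048887-1049136 on the minus strand for IDI1, chr4:165327419-165327668 on the plus strand for MSMO1 and chr1:155308616-155308865 on the plus strand for FDPS. They are chr5:111512536-111512785 on the minus strand for STARD4, chr5:43313413-43313662 on the minus strand for HMGCS1, chr7:155297628-155297877 on the plus strand for INSIG1 and chr22:41832855-41833104 on the plus strand for SREBF2. IDI1 has 3 windows in the table and HMGCS1 has 2, and the one shown is the first that holds CCAAT.
IDI1: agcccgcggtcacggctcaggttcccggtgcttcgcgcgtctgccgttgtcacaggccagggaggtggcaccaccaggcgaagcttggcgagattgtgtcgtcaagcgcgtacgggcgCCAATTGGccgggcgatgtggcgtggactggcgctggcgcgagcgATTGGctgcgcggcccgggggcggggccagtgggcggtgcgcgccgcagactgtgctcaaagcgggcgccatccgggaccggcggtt
MSMO1: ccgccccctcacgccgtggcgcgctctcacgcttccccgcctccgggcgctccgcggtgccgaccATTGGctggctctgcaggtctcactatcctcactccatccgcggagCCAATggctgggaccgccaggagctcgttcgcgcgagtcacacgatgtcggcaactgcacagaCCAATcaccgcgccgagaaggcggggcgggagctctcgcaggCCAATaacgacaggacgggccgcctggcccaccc
FDPS: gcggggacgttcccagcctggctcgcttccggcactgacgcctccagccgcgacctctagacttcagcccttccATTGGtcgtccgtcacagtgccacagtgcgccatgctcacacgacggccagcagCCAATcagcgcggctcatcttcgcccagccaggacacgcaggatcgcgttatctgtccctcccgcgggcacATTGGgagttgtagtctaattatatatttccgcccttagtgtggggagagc
STARD4: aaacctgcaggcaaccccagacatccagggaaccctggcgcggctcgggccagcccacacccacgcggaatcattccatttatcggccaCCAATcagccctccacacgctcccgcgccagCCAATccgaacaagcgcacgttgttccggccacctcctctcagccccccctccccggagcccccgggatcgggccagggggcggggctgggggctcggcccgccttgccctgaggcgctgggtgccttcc
HMGCS1: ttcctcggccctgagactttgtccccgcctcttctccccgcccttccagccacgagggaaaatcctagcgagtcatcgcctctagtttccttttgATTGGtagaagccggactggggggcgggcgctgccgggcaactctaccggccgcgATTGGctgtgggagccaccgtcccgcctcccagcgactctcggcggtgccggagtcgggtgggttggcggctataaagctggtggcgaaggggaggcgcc
INSIG1: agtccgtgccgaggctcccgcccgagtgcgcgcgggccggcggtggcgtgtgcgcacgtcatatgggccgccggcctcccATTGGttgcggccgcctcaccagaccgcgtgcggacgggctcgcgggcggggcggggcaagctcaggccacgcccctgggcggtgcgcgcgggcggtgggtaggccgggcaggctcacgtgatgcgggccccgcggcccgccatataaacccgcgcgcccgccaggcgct
SREBF2: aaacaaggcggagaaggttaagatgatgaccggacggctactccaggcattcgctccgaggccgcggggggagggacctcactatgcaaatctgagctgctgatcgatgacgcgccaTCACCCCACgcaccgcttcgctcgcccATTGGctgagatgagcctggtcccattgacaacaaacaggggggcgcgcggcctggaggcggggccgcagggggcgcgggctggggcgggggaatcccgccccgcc
MSMO1 holds 4 CCAAT boxes in this stretch, FDPS and IDI1 hold 3, HMGCS1 and STARD4 hold 2, and INSIG1 and SREBF2 hold 1. Of the 3 in IDI1, a pair on opposite strands overlap. In SREBF2 the element core begins 133 bases and the CCAAT box 106 bases before the start.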

How the data were processed

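Libraries came from TriPure RNA and a strand-preserving mRNA kit, per the labels. Each deposited file gives 1 library's raw gene counts, unstranded and by strand. STAR 2.53a, FastQC and hg18 are named in the submitters' processing notes; the annotation is not given in the sources used here. Gene symbols are the files' own, and coordinates are those of RefSeq on GRCh38.p14 alone.

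Reverse-strand counts of 6 libraries were used, without the 4 summary lines (24.2% to 28.5% of reads). Libraries of a group differed by a chi-square per degree of freedom of 4.73 to 18.5, so each was counted as 1 sample. Group was the only term in edgeR 4.0.16 (R 4.3.3), with filterByExpr at a minimum count of 10, trimmed-mean scaling, robust quasi-likelihood F tests and Benjamini-Hochberg adjustment over 14582 genes at 0.05. SEs are the absolute log2 fold change over the square root of F. A read was worth 0.0276 to 0.0524 CPM, and 0 reads allow up to 3, counting error only. Alternatives were other scalings (DESeq2's size factors, total counts), no filter, DESeq2 1.42.0, limma-voom (limma 3.58.1), non-robust estimation, unstranded counts, a replicate block, a batch term for the strand class and leaving out each library. The main edgeR fit was tested on simulated counts, and the motif search on short strings with known positions. The members and all lists, and the rule to name every member and up to 3 called genes per related list with SREBF1 and ABCG1, were chosen with earlier results of these data known. The planned rule for printing promoters, genes that rose and hold TCACNCCAC, picked 0 genes, so those printed were chosen afterwards.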

Additional observations from a re-analysis of the deposited data

How the results depend on the processing

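The number of members called was between 5 and 9 in the 8 settings that kept all libraries and had no batch term, all of them higher, and 1 in the batch fit. It ran from 1 to 16 when 1 library was left out. Over all genes the calls numbered 704 of 14582, 164 with the replicate block, 29 with the batch term and from 65 to 3069 without 1 library. The related lists gave 6 calls, 11 in DESeq2, 1 with the batch term and from 3 to 27 without 1 library. CACNCCAC in place of TCACNCCAC raised the members with a match from 1 to 4. Of 465 values of single members under the alternatives, 408 kept their direction and side of the threshold, 32 lost and 15 gained a call, and 10 changed sign. None of these 10 came from a called gene. In the batch fit GGPS1, HSD17B7, INSIG2 and SOAT1 stood at 0.020, -0.026, 0.00062 and 0.025. Over the fits without 1 library MVK ran from -0.017 (without control 2) to 0.13, TM7SF2 from -0.13 to 0.030 (without control 1), SCAP from -0.074 to 0.0086 (without co-culture library 1), TMEM97 from -0.015 (without control 3) to 0.090, and SOAT1 from -0.14 to 0.018, above 0 without control 2 or 3. The cause was not tested. The fewest reads behind a member in any library were 255, for MVK in control 2.

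Replicate numbers are shared by the groups, and deviations of same-numbered libraries correlated at -0.04, -0.08 and -0.09 across genes. These values show no pairing and, with 3 libraries a group, cannot exclude it. With the replicate block, 5 members were called, with INSIG1 gained (0.86, edgeR adjusted p 0.0398) and FDPS, FDFT1 and STARD4 lost (edgeR adjusted p from 0.0657 to 0.0811). Of the related lists, ACLY and LPCAT3 lost their calls (edgeR adjusted p 0.0815 and 0.0884). No library correlated best with its own number.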
